A study of Homo sapiens with 18 samples.

Results

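The keratin family was taken as every row of the deposited gene table whose symbol is KRT followed by digits and at most 1 letter A, B or C. The rule found 55 keratins among 41120 symbols, and left out 153 other symbols that begin with KRT and a digit, most of them pseudogenes. The table held 26 type II keratins, 28 type I keratins and KRT222, which was listed under neither type here. KRT222 lies on chromosome 17, as does the type I cluster. At least 1 count was present for 31 keratins, 20 reached a mean of 1 CPM (the count scaled by the library's TMM-adjusted total to a common size) in at least 1 group, and 15 passed edgeR's filter on low counts and were tested.

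Keratins are the intermediate filament proteins of epithelial cells, and a filament is built from pairs of a type I and a type II chain. In stratified epithelium the basal layer makes KRT5 with KRT14 and KRT15, while cells that leave it make other pairs, and simple epithelium makes KRT8 and KRT18 with KRT7 or KRT19. KRT6 and its partners KRT16 and KRT17 are known to be induced in wounded or stressed epithelium, and the hair keratins, which include KRT81 and KRT86, are known from the hard shaft of the hair.

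The samples were 18 libraries of SCC154 and FaDu cells (titled SCC154-hfm and FADU-hfm), established human lines of head and neck squamous carcinoma, positive (SCC154) and negative (FaDu) for human papillomavirus. Both lines had been transduced with a hypoxia fate-mapping reporter, in which cells stay DsRed-positive unless they meet low oxygen and are GFP-positive for good after it. Spheroids of such cells, grown in plates to which cells do not attach, were taken apart with trypsin and sorted by colour, and each fraction was then cultured and passaged under normal oxygen before RNA was extracted. The groups were post-hypoxic (GFP-positive) SCC154 with 4 libraries, non-hypoxic (DsRed-positive) SCC154 with 5, post-hypoxic FaDu with 5 and non-hypoxic FaDu with 4. Papillomavirus status and cell line are one and the same here and cannot be told apart. The 3′ tag kit reads the transcript end next to the poly(A) tail, so that a level in CPM does not grow with transcript length. Levels of different keratins are set side by side on that ground alone. Keratins differ in how much of their ends also occurs in other genes, and the handling of reads with several matches is not given. Nothing in the labels says that replicates were separate cultures or sorts, and the p-values therefore reflect no more than the scatter among these libraries, some or all of which may be technical.

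Library totals ran from 1654719 to 2503573 counts, and 1 CPM stood for 1.68 to 2.45 counts. All 9 markers of squamous epithelium were detected in each group, with a summed level of 2170 to 2815 CPM per library. The summed markers of fibroblasts, endothelium, immune cells and melanocytes stayed at or below 5.77 CPM in every library, with COL3A1, LUM, KDR, CD3E, MS4A1, MLANA and TYR at 0 throughout. Among the libraries, replicate 3 of post-hypoxic SCC154 stood apart in its total and in several keratins. It had the lowest total, the highest level of KRT13, KRT15, KRT17, KRT19 and KRT81 in its group, and the lowest of KRT5, KRT7, KRT8 and KRT18. Over all genes it was not the only one apart in its group. Chi-square per degree of freedom was 3.36 between replicates 3 and 5, the lowest of the group. It was 10.7 between replicates 3 and 4, and 6.97 between replicates 4 and 5.

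Keratins together made up 0.302% ± 0.0234 of all counts in post-hypoxic SCC154 (SD, n = 4), 0.270% ± 0.0150 in non-hypoxic SCC154 (SD, n = 5), 0.237% ± 0.0119 in post-hypoxic FaDu (SD, n = 5) and 0.216% ± 0.0165 in non-hypoxic FaDu (SD, n = 4). KRT19, the type I keratin without a tail domain, had the highest level of any keratin in all 4 groups. It held 46.6% of the keratin counts in post-hypoxic SCC154 and 44.0% in non-hypoxic SCC154, against 32.6% in post-hypoxic FaDu and 34.5% in non-hypoxic FaDu. Next came KRT18 and KRT6A in SCC154, whose libraries overlapped, and KRT18 alone in FaDu, apart from the keratins below it. The order then split between the lines. KRT17 followed in SCC154, then KRT8 and KRT80 with overlapping libraries and then KRT10, while KRT5, KRT17, KRT8 and KRT10 followed in FaDu with each neighbour overlapping the next.

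**Figure D1:**
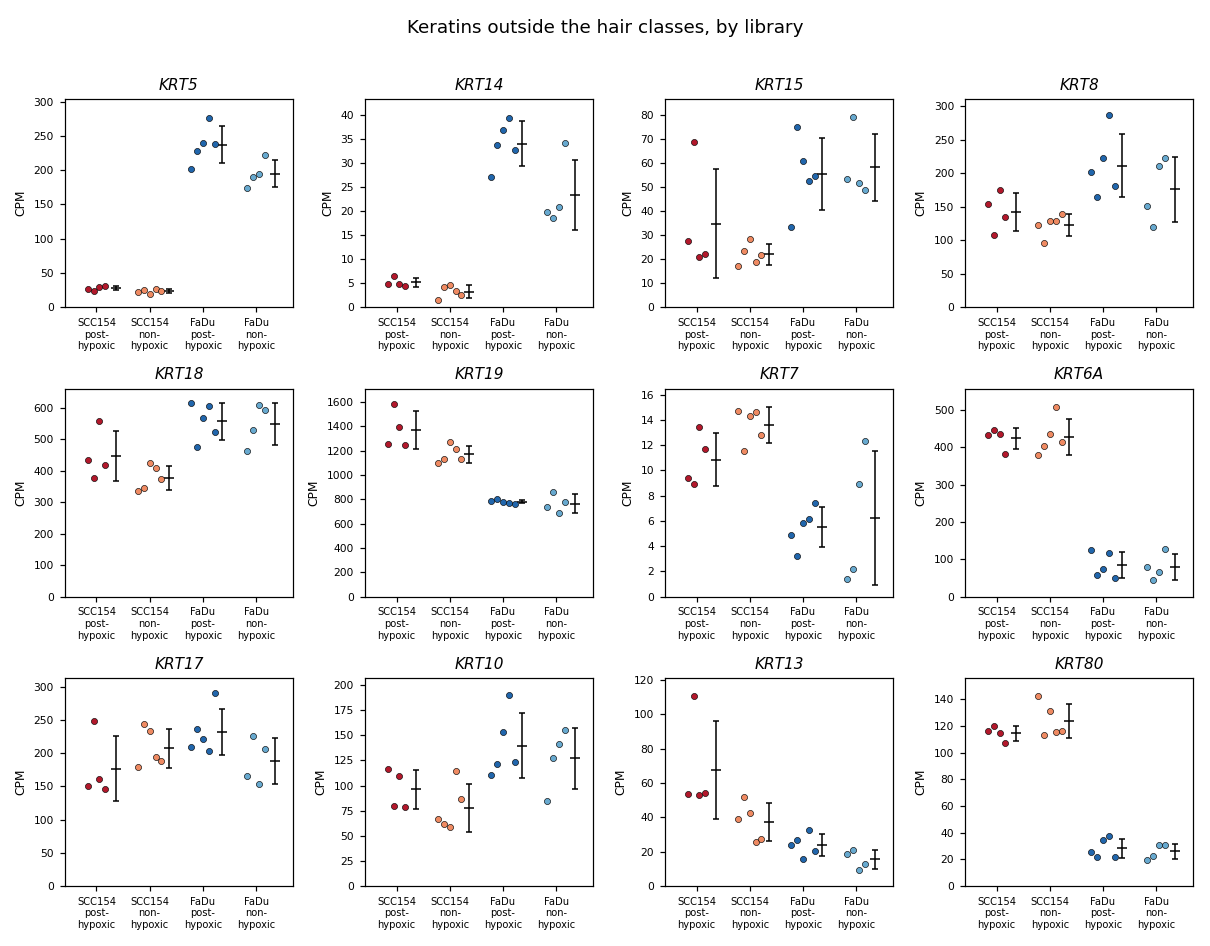
Levels of 12 keratins in CPM (vertical axes, from 0) in each library, shown as points in the order of replicate numbers, with group mean and SD beside them as a bar. SCC154 libraries lie far below FaDu libraries for KRT5 and KRT14 and above them for KRT6A, KRT80 and KRT19, while KRT17 overlaps between the lines.

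By class, the simple epithelial keratins (KRT7, KRT8, KRT18 and KRT19; KRT20 had no count) were 67.1% ± 2.00 of keratin counts in post-hypoxic SCC154 and 63.2% ± 1.20 in non-hypoxic SCC154, against 64.7% ± 1.72 in post-hypoxic FaDu and 67.3% ± 1.54 in non-hypoxic FaDu. The basal keratins KRT5, KRT14 and KRT15 were 2.30% ± 0.572 and 1.82% ± 0.154 of keratin counts in post-hypoxic and non-hypoxic SCC154, against 13.6% ± 1.48 and 12.4% ± 0.233 in post-hypoxic and non-hypoxic FaDu. The barrier alarm keratins of the KRT6 group with KRT16 and KRT17 went the other way, with 20.5% ± 1.09 and 24.0% ± 1.13 in post-hypoxic and non-hypoxic SCC154, against 13.3% ± 1.15 and 12.04% ± 1.501 in post-hypoxic and non-hypoxic FaDu. These errors are SD over the libraries of each group. Hair keratins were a minor class in every library, but the one whose share differed most in proportion between the sorted fractions of SCC154. They held 0.526% ± 0.0872 of keratin counts in post-hypoxic SCC154 and 1.91% ± 0.328 in non-hypoxic SCC154, with no overlap between libraries. The difference lay in KRT81, with 58 counts in post-hypoxic and 427 in non-hypoxic SCC154, while KRT86 had 72 and 94. The simple epithelial and barrier alarm shares did not overlap between these fractions either.

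**Figure D2:**
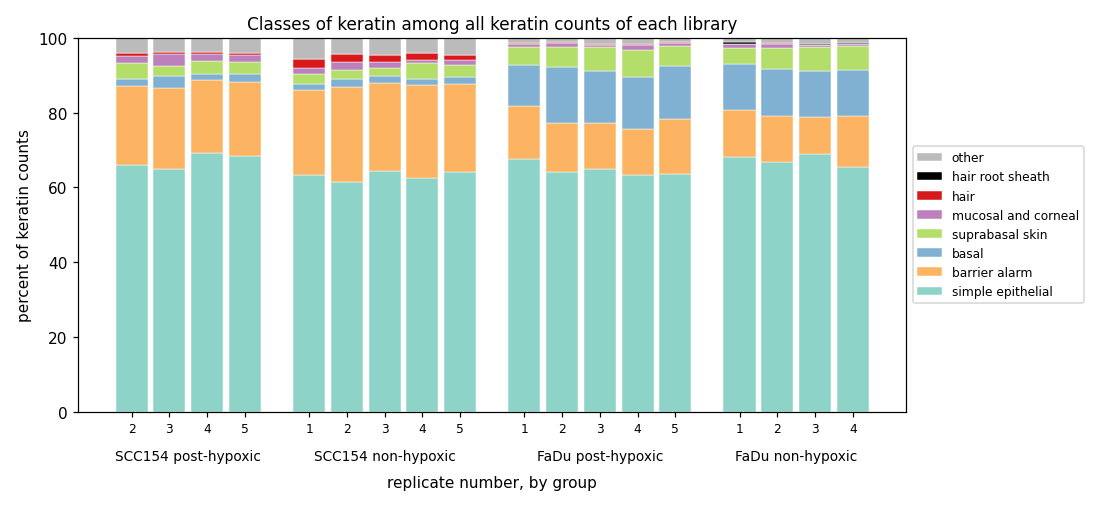
Share of each keratin class among the keratin counts of a library (vertical axis, percent), 1 bar per library, grouped by line and sorted fraction with replicate numbers below. The basal share is 1.62 to 3.12% in SCC154 and 11.1 to 15.0% in FaDu, and the hair keratin share is widest in non-hypoxic SCC154.

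Within SCC154, the comparison of sorted fractions asked which keratins still differed, after culture under normal oxygen, between cells that had met low oxygen in a spheroid and cells that had not. Of the 15 tested keratins, 1 changed, the type II hair keratin KRT81, which fell. Over all 12291 genes tested, 0.757% were called in either direction, 0.334% higher and 0.423% lower (93 genes in all, and 20 to 190 with 1 library left out). KRT81 had 6.11, 8.31, 6.12 and 6.32 CPM in the post-hypoxic libraries, against 49.1, 46.2, 42.3, 38.0 and 28.5 CPM in the non-hypoxic libraries. Every post-hypoxic library lay below every non-hypoxic one, and the post-hypoxic values lay close together. Its mean was 6.72 ± 1.07 CPM in post-hypoxic SCC154 (SD, n = 4) and 40.8 ± 8.07 CPM in non-hypoxic SCC154 (SD, n = 5), from 58 counts in post-hypoxic and 427 in non-hypoxic SCC154. The log2 fold change was -2.61 (SE 0.24, adjusted p = 7.26e-07 by edgeR's quasi-likelihood test), and without replicate 3 of post-hypoxic SCC154 it was -2.71.

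KRT81 lies at chr12:52285913-52291534 on the minus strand (GENCODE v29, GRCh38), inside the span of KRT86 on the plus strand, chr12:52249300-52309163. No exon of another gene overlapped the last 300 bases of its complete coding transcripts, but 9.16% of the 50-base words in those ends also occur in other genes, KRT86, KRT82, KRT83, KRT84 and KRT85 among them. KRT86, a hair keratin of the same type, had 8.96, 5.34, 11.8 and 5.42 CPM in post-hypoxic SCC154, against 8.35, 7.21, 12.01, 9.49 and 7.84 CPM in non-hypoxic SCC154. Its libraries overlapped, with a log2 fold change of -0.14 (SE 0.30, adjusted p = 0.857 by edgeR). KRT82, KRT84 and KRT85 had no count in any library and KRT83 had 3 in all, while no 50-base word in the ends of KRT86 occurred in another gene. In FaDu, KRT81 was near 0 in both fractions, with 5 counts over the 5 post-hypoxic libraries and 2 over the 4 non-hypoxic ones.

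**Figure D3:**
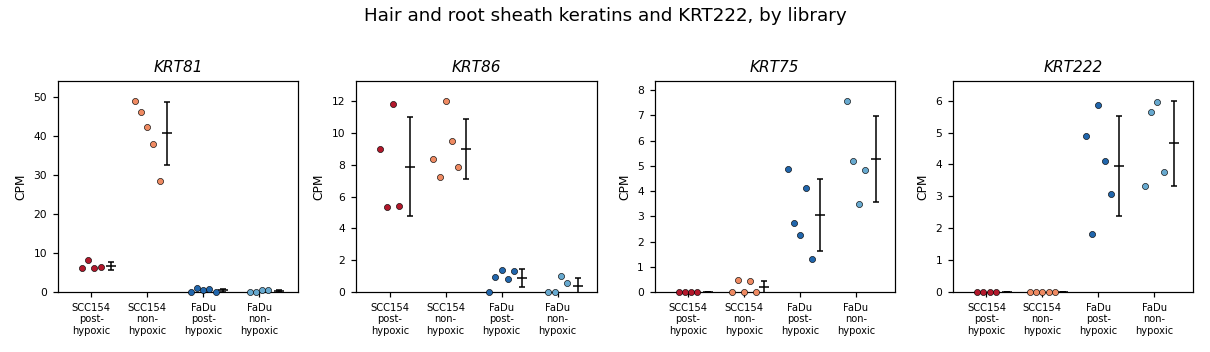
Levels of KRT81, KRT86, KRT75 and KRT222 in CPM (vertical axes, from 0) in each library, shown as points in the order of replicate numbers, with group mean and SD beside them. KRT81 is at 6.11 to 8.31 CPM in post-hypoxic SCC154 and 28.5 to 49.1 CPM in non-hypoxic SCC154, whereas KRT75 and KRT222 are near 0 in SCC154.

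The other 14 tested keratins did not pass the test in SCC154, and 1 of them, KRT222, had no count in this line. The log2 fold changes of the 15 were above 0 for 8 keratins and below 0 for 6, with a median of 0.22, against 0 over all genes. Type I keratins leaned to the post-hypoxic side, with 6 of 7 above 0 and a median of 0.31, and type II keratins to the other, with 2 of 7 above 0 and a median of -0.11.

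KRT13, the type I keratin of mucosal suprabasal layers, came nearest to the threshold after KRT81. Its levels were 53.4, 110, 53.0 and 54.2 CPM in post-hypoxic SCC154, against 38.8, 51.9, 42.3, 25.5 and 27.6 CPM in non-hypoxic SCC154. The groups did not overlap, as was so for 5.55% of all genes in this comparison. KRT13 was higher in the post-hypoxic library of all 4 same-numbered pairs. In SCC154, here and below, such libraries share a number but were not taken to be paired. The share of all genes with the same sign in every pair was not counted in either line. Replicate 3 was far above the other post-hypoxic libraries. The log2 fold change was 0.85 (SE 0.25, adjusted p = 0.102 by edgeR), and 0.53 (adjusted p = 0.193) without that replicate. It passed the threshold when no filter on low counts was applied (adjusted p = 0.00197). KRT13 also passed with a term for replicate number (a replicate block) in the fit. Adjusted p by edgeR was 0.00261 with the block within each line and 0.0491 with it shared across the lines. All 3 complete coding transcripts of KRT13 end opposite AC019349.1, an antisense gene, over up to 298 bases, and without a stated strand setting their reads cannot be told apart.

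KRT19 had 1258, 1585, 1395 and 1246 CPM in post-hypoxic SCC154, against 1101, 1130, 1271, 1216 and 1134 CPM in non-hypoxic SCC154. The libraries overlapped slightly, and the log2 fold change was 0.23 (SE 0.09, adjusted p = 0.192 by edgeR). KRT18, the type I keratin of simple epithelium, had 434, 376, 558 and 418 CPM in post-hypoxic SCC154, against 335, 346, 423, 410 and 372 CPM in non-hypoxic SCC154, and a log2 fold change of 0.24 (SE 0.12, adjusted p = 0.306). KRT8, the type II partner of KRT18, had 154, 107, 175 and 135 CPM in post-hypoxic SCC154, against 122, 96.2, 129, 128 and 140 CPM in non-hypoxic SCC154, and a log2 fold change of 0.22 (SE 0.18, adjusted p = 0.582). For these 3 simple epithelial keratins the post-hypoxic means were higher, but none of the differences passed the test. Of the 4 same-numbered pairs, the post-hypoxic library was higher in 4 for KRT19, 3 for KRT18 and 2 for KRT8. KRT7, a type II keratin of glandular and ductal epithelium, averaged 10.9 ± 2.13 CPM in post-hypoxic SCC154 (SD, n = 4) and 13.6 ± 1.40 CPM in non-hypoxic SCC154 (SD, n = 5). It was lower in the post-hypoxic library of all 4 same-numbered pairs, with a log2 fold change of -0.31 (SE 0.32, adjusted p = 0.677 by edgeR).

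Neither tested barrier alarm keratin passed the test. KRT6A, the type II member, had 434, 446, 437 and 381 CPM in post-hypoxic SCC154, against 379, 405, 437, 508 and 414 CPM in non-hypoxic SCC154. KRT17, a type I member, had 151, 249, 161 and 146 CPM in post-hypoxic SCC154, against 179, 245, 233, 194 and 188 CPM in non-hypoxic SCC154. Apart from replicate 3, the post-hypoxic libraries were below all non-hypoxic ones for KRT17, with a log2 fold change of -0.24 (SE 0.15, adjusted p = 0.479 by edgeR) and of -0.44 (adjusted p = 0.102) without replicate 3.

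KRT10, the type I keratin of suprabasal skin, had 116, 79.5, 110 and 79.0 CPM in post-hypoxic SCC154, against 66.3, 61.5, 58.4, 115 and 87.0 CPM in non-hypoxic SCC154. Its usual type II partner KRT1 had no count in any of the 18 libraries. KRT80, a type II keratin known from many differentiating epithelia, had 116, 120, 115 and 107 CPM in post-hypoxic SCC154, against 142, 114, 131, 116 and 116 CPM in non-hypoxic SCC154. Neither keratin separated the fractions.

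Among the basal keratins, KRT5 had 26.5, 24.3, 29.4 and 31.6 CPM in post-hypoxic SCC154, against 21.6, 24.5, 19.4, 26.8 and 23.9 CPM in non-hypoxic SCC154. KRT14 averaged 5.207 ± 0.8995 CPM in post-hypoxic SCC154 (SD, n = 4) and 3.26 ± 1.30 CPM in non-hypoxic SCC154 (SD, n = 5). KRT15 averaged 34.9 ± 22.9 CPM and 22.0 ± 4.42 CPM in post-hypoxic and non-hypoxic SCC154. All 3 were higher in the post-hypoxic library of all 4 same-numbered pairs, with log2 fold changes of 0.26, 0.67 and 0.63 for KRT5, KRT14 and KRT15, and adjusted p of 0.363, 0.326 and 0.305 by edgeR. The value for KRT15 was 0.11 (adjusted p = 0.846) without replicate 3 of post-hypoxic SCC154. In bulk samples such as these, fewer cells that make a keratin and less of its RNA per cell cannot be told apart.

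**Figure D4:**
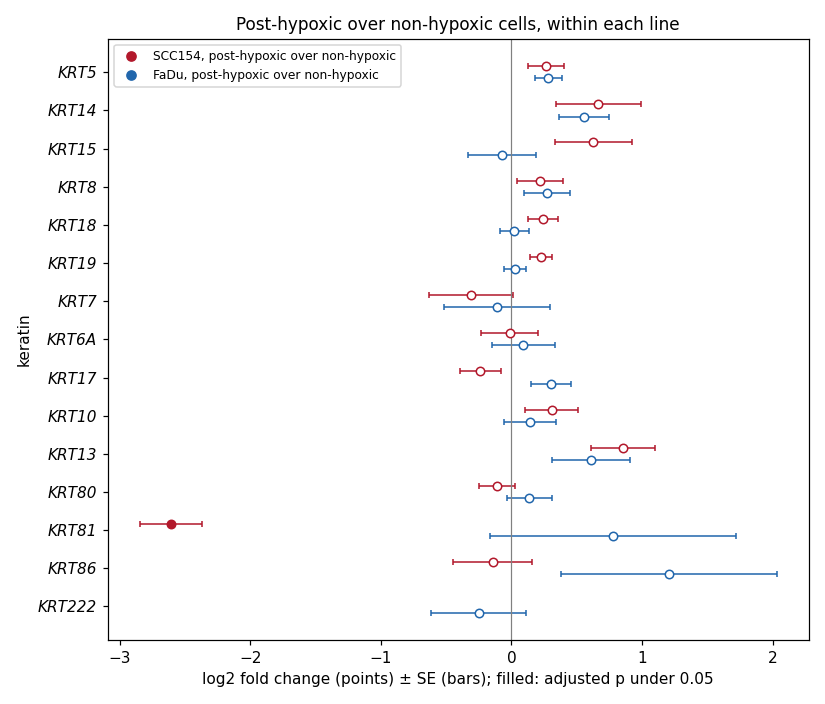
Log2 fold change of post-hypoxic over non-hypoxic cells (horizontal axis) for the tested keratins in SCC154 (red) and FaDu (blue), with bars of 1 SE and filled points for an adjusted p under 0.05. KRT81 in SCC154, at -2.61, is the 1 filled point; KRT222 is shown for FaDu alone because it had no count in SCC154.

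Within FaDu, the same comparison called no keratin and none of the 12291 genes (0% called by edgeR; 298 genes had an unadjusted p under 0.05, DESeq2 called 3 genes and limma voom 0). Adjusted p was 1 for all 15 keratins by edgeR, and the libraries of the fractions overlapped for each of them; over all genes they did not overlap for 1.07%. The log2 fold changes were above 0 for 12 keratins and below 0 for 3, with a median of 0.14, against -0.003 over all genes. KRT5 had 202, 228, 240, 276 and 238 CPM in post-hypoxic FaDu, against 174, 190, 194 and 222 CPM in non-hypoxic FaDu. It was higher in the post-hypoxic library of 4 of 4 pairs, although the groups overlapped, and its log2 fold change was 0.28 (SE 0.11, unadjusted p = 0.0136 by edgeR). KRT14, its type I partner, averaged 34.1 ± 4.68 CPM in post-hypoxic FaDu (SD, n = 5) and 23.4 ± 7.33 CPM in non-hypoxic FaDu (SD, n = 4), a log2 fold change of 0.55 (SE 0.19, unadjusted p = 0.00748 by edgeR), also higher in 4 of 4 pairs. The third basal keratin, KRT15, averaged 55.4 ± 15.0 CPM in post-hypoxic FaDu and 58.3 ± 14.1 CPM in non-hypoxic FaDu, and was higher in 2 of 4 pairs.

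KRT13 averaged 23.8 ± 6.46 CPM in post-hypoxic FaDu (SD, n = 5) and 15.5 ± 5.33 CPM in non-hypoxic FaDu (SD, n = 4), with a log2 fold change of 0.61 and a higher level in 4 of 4 pairs. KRT8 had 202, 165, 224, 287 and 182 CPM in post-hypoxic FaDu, against 151, 120, 211 and 223 CPM in non-hypoxic FaDu, again higher in 4 of 4 pairs. KRT17 had 209, 237, 221, 203 and 291 CPM in post-hypoxic FaDu, against 166, 227, 154 and 207 CPM in non-hypoxic FaDu. None of these 3 passed the test.

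KRT19 had 786, 800, 779, 773 and 764 CPM in post-hypoxic FaDu, against 739, 861, 684 and 778 CPM in non-hypoxic FaDu. KRT18 had 614, 476, 567, 606 and 522 CPM in post-hypoxic FaDu, against 462, 530, 607 and 593 CPM in non-hypoxic FaDu. Both had log2 fold changes under 0.03, and their libraries overlapped throughout. KRT6A had 124, 57.7, 74.5, 117 and 50.8 CPM in post-hypoxic FaDu, against 79.9, 45.5, 66.0 and 128 CPM in non-hypoxic FaDu. KRT10 had 111, 121, 153, 190 and 123 CPM in post-hypoxic FaDu, against 85.1, 127, 141 and 156 CPM in non-hypoxic FaDu, and KRT80 lay between 21.9 and 37.4 CPM in post-hypoxic FaDu and between 19.9 and 30.8 CPM in non-hypoxic FaDu. For these 3 keratins the fractions overlapped.

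KRT7 was uneven between FaDu replicates. It had 4.88, 3.21, 5.87, 6.16 and 7.44 CPM in post-hypoxic FaDu, against 1.42, 2.17, 8.94 and 12.3 CPM in non-hypoxic FaDu. Replicates 3 and 4 were above replicates 1 and 2 in both fractions, and the log2 fold change of -0.11 became 0.44 without replicate 4 of non-hypoxic FaDu. The end of 1 of its complete coding transcripts overlaps KRT7-AS on the other strand by 27 bases.

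The difference between the lines in how the sorted fractions compared was tested as an interaction (SCC154 difference minus FaDu difference), and no keratin passed. Of all 12291 genes, 0.0163% did by edgeR (2 genes, with 1202 at an unadjusted p under 0.05; DESeq2 called 21 and limma voom 3). For KRT81 the estimate was -3.39 (SE 1.06, 95% normal interval -5.47 to -1.31, adjusted p = 0.321), so that its fall in SCC154 was not shown to differ from FaDu, where KRT81 had 7 counts in all. KRT17 had the next largest difference among keratins by unadjusted p, -0.54 (SE 0.22, adjusted p = 0.438). All 7 type II keratins had an estimate below 0, and 6 of 7 type I keratins had one above 0, but for KRT5, KRT6A, KRT7, KRT8, KRT13 and KRT14 the sign turned when single libraries were left out.

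Between the lines, nearly all tested keratins differed, as did most genes. In the post-hypoxic fractions 15 of 15 tested keratins were called, 7 higher and 8 lower in SCC154, beside 69.7% of all genes (34.8% higher and 34.9% lower). In the non-hypoxic fractions 14 of 15 were called, 7 higher and 7 lower in SCC154, beside 68.9% of all genes (34.5% in each direction). The 15 are those that passed the filter on low counts, which keeps a gene that is high in a single line. Among these, 5 of 7 type II keratins were higher in SCC154 in both fractions, while 5 of 7 type I keratins were lower in post-hypoxic SCC154 and 4 of 7 in non-hypoxic SCC154. The counts by type depend on the filter. KRT81 and KRT86, both of type II, averaged at most 0.438 and 0.881 CPM in FaDu. The filter left out the type II KRT75 and the type I KRT32, both lower in SCC154, and the type I KRT34, higher there.

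The basal keratins were lower in SCC154. KRT5, at the values given above, averaged 27.9 CPM in post-hypoxic SCC154 and 237 CPM in post-hypoxic FaDu, a log2 fold change of -3.08 (SE 0.13, adjusted p = 1.3e-15 by edgeR). In the non-hypoxic fractions it averaged 23.2 CPM in SCC154 and 195 CPM in FaDu, a log2 fold change of -3.06 (SE 0.12, adjusted p = 9.13e-16). KRT14 followed with -2.72 (SE 0.24) in the post-hypoxic and -2.83 (SE 0.26) in the non-hypoxic fractions. The pooled ratio of the pair differed far less between the lines than either level. Counts of KRT5 per count of KRT14 were 5.51 in post-hypoxic SCC154 and 7.32 in non-hypoxic SCC154. They were 6.95 in post-hypoxic FaDu and 8.43 in non-hypoxic FaDu. The SCC154 ratios rest on 45 post-hypoxic and 34 non-hypoxic counts of KRT14. Single libraries ran from 3.73 to 7 in post-hypoxic and 4.25 to 14.67 in non-hypoxic SCC154. In FaDu they ran from 6.49 to 7.46 in post-hypoxic and 6.47 to 10.19 in non-hypoxic libraries. In the last 300 bases of KRT14, 22.3% of the 50-base words also occur in the pseudogene KRT16P6.

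KRT15 was lower in SCC154, with a log2 fold change of -0.72 (SE 0.27, adjusted p = 0.0243 by edgeR) in the post-hypoxic fractions and of -1.41 (SE 0.28, adjusted p = 0.00011) in the non-hypoxic fractions. The post-hypoxic value was -1.23 without replicate 3 of post-hypoxic SCC154, and the call was lost without replicate 2, 4 or 5 of post-hypoxic SCC154 or replicate 2 of post-hypoxic FaDu, and in the fit of these 2 groups alone (adjusted p up to 0.113).

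The type II keratins KRT6A and KRT80 were higher in SCC154. KRT6A averaged 424 CPM in post-hypoxic SCC154 and 84.8 CPM in post-hypoxic FaDu, a log2 fold change of 2.33 (SE 0.23, adjusted p = 4.02e-09 by edgeR), and 429 CPM in non-hypoxic SCC154 and 79.9 CPM in non-hypoxic FaDu, a log2 fold change of 2.43 (SE 0.24). KRT80 averaged 115 CPM in post-hypoxic SCC154 and 28.3 CPM in post-hypoxic FaDu, a log2 fold change of 2.01 (SE 0.15, adjusted p = 6.13e-11), and 124 CPM in non-hypoxic SCC154 and 25.9 CPM in non-hypoxic FaDu, a log2 fold change of 2.26 (SE 0.16). No library of SCC154 overlapped any of FaDu for either keratin in the same fraction, as was so for 57.3% of all genes in the post-hypoxic and 56.5% in the non-hypoxic fractions.

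KRT17, a type I partner of KRT6A, did not follow it. Its log2 fold change was -0.40 (SE 0.15, adjusted p = 0.025 by edgeR) in the post-hypoxic fractions and 0.14 (SE 0.15, adjusted p = 0.431) in the non-hypoxic ones. The first of these calls was lost without replicate 2, 4 or 5 of post-hypoxic SCC154 or replicate 5 of post-hypoxic FaDu (adjusted p up to 0.106). There were 2.47 counts of KRT6A per count of KRT17 in post-hypoxic SCC154 and 2.09 in non-hypoxic SCC154, against 0.360 in post-hypoxic FaDu and 0.411 in non-hypoxic FaDu. KRT16, the other partner, was scarce in every group, at 1.90 ± 0.985 and 1.86 ± 0.950 CPM in post-hypoxic and non-hypoxic SCC154 and at 1.30 ± 0.676 and 0.587 ± 0.430 CPM in post-hypoxic and non-hypoxic FaDu, and was not tested. Within FaDu, KRT16 was higher in the post-hypoxic library of 4 of 4 pairs, on 14 counts in post-hypoxic and 5 in non-hypoxic FaDu. It was not called there without the filter on low counts.

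Simple epithelial keratins differed less and in both directions. KRT19 was higher in SCC154, with a log2 fold change of 0.81 (SE 0.09, adjusted p = 1.31e-08 by edgeR) in the post-hypoxic and 0.61 (SE 0.09, adjusted p = 1.42e-06) in the non-hypoxic fractions, and its libraries did not overlap between the lines. KRT7 was higher as well, with 0.97 (SE 0.36, adjusted p = 0.0196) in the post-hypoxic fractions, a call lost without replicate 4 of post-hypoxic SCC154 or replicate 2 of post-hypoxic FaDu (adjusted p up to 0.0584), and 1.17 (SE 0.36, adjusted p = 0.00596) in the non-hypoxic ones. KRT18 was lower in SCC154, with -0.32 (SE 0.12, adjusted p = 0.0176) in the post-hypoxic fractions, a call lost without replicate 3 or 5 of post-hypoxic SCC154 (adjusted p up to 0.0739), and -0.54 (SE 0.11, adjusted p = 0.000235) in the non-hypoxic ones. KRT8 was lower too, with -0.56 (SE 0.18, adjusted p = 0.00719) in the post-hypoxic fractions and -0.51 (SE 0.18, adjusted p = 0.014) in the non-hypoxic ones, the second call lost without replicate 3 or 4 of non-hypoxic FaDu (adjusted p up to 0.0722). The count ratio of KRT8 to KRT18 was 0.322 in post-hypoxic SCC154 and 0.328 in non-hypoxic SCC154, against 0.384 in post-hypoxic FaDu and 0.317 in non-hypoxic FaDu. KRT18 shares 21% of its 50-base end words with pseudogenes of KRT18, to which 520 counts were assigned over all libraries, against 18610 to KRT18.

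Of the suprabasal keratins, KRT13 was higher in SCC154, with a log2 fold change of 1.48 (SE 0.25, adjusted p = 1.76e-05 by edgeR) in the post-hypoxic and 1.24 (SE 0.29, adjusted p = 0.000573) in the non-hypoxic fractions. Its partner in mucosal epithelium, the type II KRT4, stayed at a mean of 1.85 CPM or below in every group and was not tested. KRT10 was lower in SCC154, with -0.54 (SE 0.20, adjusted p = 0.0217) in the post-hypoxic fractions and -0.70 (SE 0.20, adjusted p = 0.00382) in the non-hypoxic ones, and the first call was lost without replicate 3 or 5 of post-hypoxic SCC154 or replicate 4 of post-hypoxic FaDu (adjusted p up to 0.0815).

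**Figure D5:**
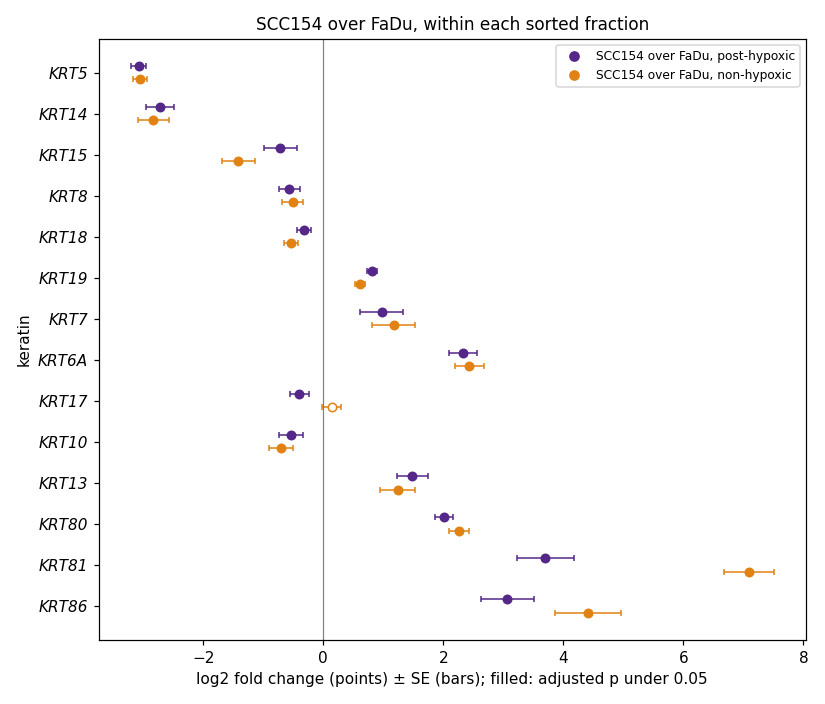
Log2 fold change of SCC154 over FaDu (horizontal axis) for 14 keratins in the post-hypoxic (purple) and non-hypoxic (orange) fractions, with bars of 1 SE and filled points for an adjusted p under 0.05. KRT5 and KRT14 lie near -3 in both fractions, KRT81 at 3.701 and 7.09, and KRT17 in the non-hypoxic fractions is the 1 open point; KRT222, with no count in SCC154, is left out.

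The hair keratins KRT81 and KRT86 were higher in SCC154. KRT81 had a log2 fold change of 3.701 (SE 0.47, adjusted p = 2.68e-07 by edgeR) in the post-hypoxic fractions and of 7.09 (SE 0.42, adjusted p = 7.18e-13) in the non-hypoxic ones. On pooled counts that is a ratio of 14.4 (95% counting interval 5.85 to 46.1) in the post-hypoxic and of 167 (46.0 to 1384) in the non-hypoxic fractions. KRT86 had a log2 fold change of 3.07 (SE 0.44, adjusted p = 1.47e-06) in the post-hypoxic fractions and of 4.42 (SE 0.55, adjusted p = 1.89e-07) in the non-hypoxic ones. The second of these rests on 3 counts in non-hypoxic FaDu, a ratio of 24.5 (8.14 to 121), and was 5.37 without replicate 3 of non-hypoxic FaDu.

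Some scarce keratins were found in FaDu and hardly or not at all in SCC154. KRT222 had 0 counts in all 9 SCC154 libraries, against 3.95 ± 1.57 CPM in post-hypoxic FaDu (SD, n = 5) and 4.66 ± 1.33 CPM in non-hypoxic FaDu (SD, n = 4). With a floor of 3 counts over the group, it was at least 11.5-fold lower in post-hypoxic SCC154 than in post-hypoxic FaDu and at least 16.6-fold lower in non-hypoxic SCC154 than in non-hypoxic FaDu (adjusted p = 1e-05 and 2.87e-06 by edgeR). It was called in both fractions in all 22 alternatives in which it passed the filter, but did not pass it, and so was not tested, without replicate 1 or 3 of post-hypoxic FaDu and in the fits of 2 groups alone. KRT75, a keratin of the companion layer around the hair, had 0 counts in post-hypoxic SCC154 and 33 in post-hypoxic FaDu, at least 8.84-fold lower, and 2 counts in non-hypoxic SCC154 and 44 in non-hypoxic FaDu, a ratio of 0.0356 (95% counting interval 0.00418 to 0.136). The hair keratin KRT32 had 1 count in post-hypoxic SCC154 and 13 in post-hypoxic FaDu, a ratio of 0.0958 (0.00225 to 0.638), and 0 counts in non-hypoxic SCC154 and 14 in non-hypoxic FaDu, at least 5.96-fold lower. KRT75 and KRT32 did not pass the filter; fitted without it, both were called lower in SCC154 in each fraction, KRT75 with adjusted p = 3.68e-07 and 3.66e-09, KRT32 with 0.0146 and 9.34e-05 by edgeR. KRT75 also differed between the FaDu fractions in the same direction in each pair: it was lower in the post-hypoxic library of 4 of 4, with a mean of 3.06 ± 1.43 CPM in post-hypoxic FaDu and 5.267 ± 1.702 CPM in non-hypoxic FaDu, but was not called there (adjusted p = 1 without the filter). KRT9, a keratin of palm and sole skin, averaged 0.624 to 1.21 CPM in the 4 groups.

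Promoter sequences (250 bases before to 50 after the annotated start, RefSeq, GRCh38.p14) were at hand for 34 of the 55 keratins, in 38 entries. For 3 keratins that were lower in SCC154 the window is shown 5′ to 3′, KRT5 as the basal keratin with the largest difference, KRT75 as one nearly without counts in SCC154, and KRT10 as the one of these that holds the letters TATAAA, in capitals, 29 bases before the start.
KRT5 (chr12:52520345-52520644, minus strand): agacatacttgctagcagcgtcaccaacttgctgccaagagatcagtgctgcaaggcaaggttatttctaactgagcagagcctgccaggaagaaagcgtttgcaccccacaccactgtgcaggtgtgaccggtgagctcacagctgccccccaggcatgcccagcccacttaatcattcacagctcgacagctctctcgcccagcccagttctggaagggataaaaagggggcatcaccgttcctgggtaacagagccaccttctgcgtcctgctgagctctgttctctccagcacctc
KRT75 (chr12:52434322-52434621, minus strand): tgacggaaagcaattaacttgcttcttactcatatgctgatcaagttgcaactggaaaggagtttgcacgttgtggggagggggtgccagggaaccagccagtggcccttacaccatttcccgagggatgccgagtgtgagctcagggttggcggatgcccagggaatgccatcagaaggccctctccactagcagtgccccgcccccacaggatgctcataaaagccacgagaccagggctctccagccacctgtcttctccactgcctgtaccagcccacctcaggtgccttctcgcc
KRT10 (chr17:40822565-40822864, minus strand): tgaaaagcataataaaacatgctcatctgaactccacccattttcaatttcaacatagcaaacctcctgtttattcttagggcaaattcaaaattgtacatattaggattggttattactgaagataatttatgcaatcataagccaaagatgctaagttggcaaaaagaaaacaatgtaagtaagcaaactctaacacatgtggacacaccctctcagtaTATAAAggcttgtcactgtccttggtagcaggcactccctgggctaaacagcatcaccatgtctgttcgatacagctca
The letters TATAAA, searched on both strands, stood in 21 of the 38 keratin entries (55.3%), against 11.5% of all 35116 promoter entries of the same length, and they are not in the windows of KRT5 and KRT75. The letters ACGTG stood in 18.4% of keratin entries, against 21.4% of all, and GCGTG in 15.8%, against 36.5% of all. KRT75 holds ACGTG once, on its other strand, while KRT5 and KRT10 hold neither. The letters TGANTCA stood in none of the keratin entries, against 7.71% of all, and GCCNNNGGC in 13.2%, against 23.2% of all. Most keratins with an entry had few or no counts here, and a match of letters is a description of the window only.

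Genes that link, bind or regulate keratins were followed through lists, whose members and the keratins had been chosen with earlier results of these data known. Of 18 tested linkers and binding proteins, 1 was called between the fractions of SCC154, lower in post-hypoxic cells, beside 0.757% of all genes called and 0.423% called lower: DST, which ties keratin filaments to hemidesmosomes, averaged 514 ± 109 CPM in post-hypoxic SCC154 (SD, n = 4) and 765 ± 40.4 CPM in non-hypoxic SCC154 (SD, n = 5), a log2 fold change of -0.57 (SE 0.13, adjusted p = 0.0416 by edgeR). The call was lost in 12 of 26 alternatives, among them those without replicate 2 or 4 of post-hypoxic SCC154, any 1 replicate of non-hypoxic SCC154, replicate 2 or 3 of post-hypoxic FaDu or replicate 3 of non-hypoxic FaDu (adjusted p up to 0.18). The median of the list was -0.04. Of 24 tested regulators of keratin genes, 1 was called, also lower: SOX2, a stem cell transcription factor, averaged 12.5 ± 1.09 CPM in post-hypoxic SCC154 and 26.9 ± 8.16 CPM in non-hypoxic SCC154, a log2 fold change of -1.10 (SE 0.23, adjusted p = 0.0289). That call was lost in 6 of 26 alternatives, without replicate 2 or 4 of post-hypoxic SCC154, without replicate 1, 2 or 4 of non-hypoxic SCC154, and in the fit of these 2 groups alone (adjusted p up to 0.125). The median of this list was -0.06, and none of the 6 tested genes of other intermediate filaments was called. In FaDu no member of the 3 lists was called.

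Between the lines, the largest difference among the regulators was that of EHF, an epithelial ETS factor. EHF averaged 438 CPM in post-hypoxic SCC154 and 3.48 CPM in post-hypoxic FaDu, and 519 CPM in non-hypoxic SCC154 and 2.90 CPM in non-hypoxic FaDu, with log2 fold changes of 7.02 and 7.46. HOXC13, a homeobox factor known to drive hair keratin genes, averaged 27.9 ± 2.86 CPM in post-hypoxic SCC154 and 5.45 ± 1.76 CPM in post-hypoxic FaDu, and 28.8 ± 3.24 CPM in non-hypoxic SCC154 and 3.61 ± 1.56 CPM in non-hypoxic FaDu. Between the sorted fractions of SCC154, the log2 fold change of HOXC13 was -0.05 (SE 0.18, adjusted p = 0.934 by edgeR). Whether HOXC13 has a part in the level of KRT81 was not tested. SOX2 was higher in SCC154 by 2.21 and 3.95 on the log2 scale in the post-hypoxic and non-hypoxic fractions. Lower in SCC154 were FOSL1, a subunit of AP-1 (log2 fold changes -2.57 and -2.59), KLF4, a factor of epithelial differentiation (-1.21 and -0.88), and TP63, a regulator of stratified epithelium (-1.01 and -0.85). Of the 24 regulators, post-hypoxic SCC154 had 12 called higher and 8 called lower, and non-hypoxic SCC154 had 10 and 8, where 69.7% (post-hypoxic) and 68.9% (non-hypoxic) of all genes were called.

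Of the 18 linkers, post-hypoxic SCC154 had 4 called higher and 7 called lower, and non-hypoxic SCC154 had 5 and 8, shares near the 69.7% and 68.9% of all genes called and so no result about linkers. TCHP, a keratin-binding protein, was lower in SCC154, with log2 fold changes of -2.33 and -2.09 in the post-hypoxic and non-hypoxic fractions, as was DSP, the desmosomal anchor of keratin filaments, with -1.38 and -1.06. JUP, a plaque protein of desmosomes, was higher, with 0.96 and 0.85. The other linkers among the 3 largest differences in each direction were PNN (-0.87) lower and TRADD (0.93) and FAM83H (0.88) higher in post-hypoxic SCC154, and DNAJB6 (-0.79) lower and PKP2 (0.99) and PLEC (0.97) higher in non-hypoxic SCC154; the interaction called none of the 18 linkers (lowest adjusted p = 0.321 by edgeR). Of the 6 tested genes of other intermediate filaments, post-hypoxic SCC154 had 0 called higher and 3 called lower, and non-hypoxic SCC154 had 0 and 2. Over all genes, 69.7% and 68.9% were called. Among those named here, the lamin gene LMNB1 was lower in SCC154, with -0.83 and -0.86, and LMNB2 in post-hypoxic SCC154, with -0.60. LMNB2 in non-hypoxic SCC154 (-0.29), LMNA (0.11 and 0.24) and IFFO2 (-0.13 and 0.26) did not pass the test.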

How the data were processed

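RNA of 18 libraries was read from transcript 3′ ends (QuantSeq 3′ mRNA-Seq V2, per the labels' protocols). Build hg38 and the tools HISAT2 2.2.1, featureCounts 1.5.1, UMI-tools 1.1.5, Trimmomatic 0.39, FastQC 0.11.9 and DESeq2 are listed in the submitters' processing notes. The values used are raw counts per gene symbol, as deposited by the authors, with no normalization. Not given in the sources used here are the strand setting, the annotation and the handling of reads with several matches.

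Counts were fitted with edgeR 4.0.16 in R 4.3.3 (quasi-likelihood test, TMM factors, filterByExpr, 4 groups, no block), with Benjamini-Hochberg adjustment over all 12291 genes tested and a threshold of 0.05. CPM values use library totals times TMM factors, while shares of counts use plain totals. Counting intervals (95%, exact) and floors of 3 counts cover counting error only. Before use, the fit recovered known log2 changes of 2 in abundant genes, in simulated counts with the same spread for every gene. Changes in scarce genes and uneven spread between libraries were not simulated. Alternatives were size factors of DESeq2, upper-quartile factors, no filter, DESeq2 1.42.0, limma voom (limma 3.58.1), the libraries of 2 groups alone, each library left out and replicate blocks.

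Values per library are printed for keratins called within a line or reaching a mean of 100 CPM in a group, group values for those reaching 1 CPM, and counts for the rest. KRT13 and KRT86 in SCC154 and KRT7 in FaDu were given by library after their values were seen, outside that rule. List genes are named where called within a line, or among the 3 largest differences between lines in each direction, if they reached 10 CPM over all libraries. The members and lists were chosen with earlier results of these data known.

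Replicate pairs of a group all differed by more than sampling noise (chi-square per degree of freedom of 1.77 or more). Same-numbered FaDu libraries deviated together, with r above 0.1, in 4 of 4 pairs (r of 0.166 to 0.495). Their numbers were taken to pair them, from the data and not from the labels. The pairing is weak for replicate 3 of FaDu, where r was 0.166 with its own number and up to 0.191 with another. In SCC154 r was above 0.1 in 3 of 4 pairs (r of 0.154 to 0.393). For replicate 2 of SCC154 it was 0.023, and up to 0.211 with another number. Whether the numbers pair the SCC154 libraries was not settled, and they were not taken to do so. The fit reported uses no pairing in either line, and fits with replicate blocks are given below.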

Additional observations from a re-analysis of the deposited data

Results flagged for a closer look

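In 76 sets of libraries, each 1 keratin in 1 group, a single library was set against the rest by its gap to the nearest other library, relative to the whole range; 7 stood apart, and chance alone gives about 1 in 20. Replicate 3 of post-hypoxic SCC154, the library with the lowest total, accounts for 5 of the 7. In it KRT13 was at 110.4 CPM, with the other post-hypoxic SCC154 libraries at 53.0 to 54.2 CPM. KRT15 was at 68.86 CPM there, with the others at 20.8 to 27.7 CPM, and KRT17 at 249.3 CPM, with the others at 146 to 161 CPM. KRT81 was at 8.31 CPM, with the others at 6.11 to 6.32 CPM, a gap that leaves it far below every non-hypoxic SCC154 library. KRT32 was at 0.5936 CPM, which is 1 count, with the others at 0. A lone count always makes the gap equal to the range, so the flag of KRT32 says nothing about this library.

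The remaining 2 were in non-hypoxic FaDu. KRT14 was at 34.33 CPM in replicate 4, with the others at 18.6 to 20.9 CPM, and KRT15 at 79.29 CPM in replicate 2, with the others at 48.8 to 53.4 CPM. The part of these libraries in the differences was not tested beyond the values without them given above.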

How the results depend on the processing

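KRT81 in SCC154 was called in all 26 alternatives, with log2 fold changes of -2.71 to -2.53 and adjusted p of 1.06e-17 to 3.37e-05. The number of keratins called in SCC154, 1 in the fit reported, was 2 without the filter on low counts, 2 with a replicate block within each line and 2 with a replicate block shared across the lines, the added one being KRT13 (adjusted p = 0.00197, 0.00261 and 0.0491 by edgeR). Leaving out 1 library kept it at 1, and kept 0 in FaDu and 0 for the interaction. The cause was not tested. Over all genes, 93 were called in SCC154, against 291 without the filter, 207 by DESeq2, 22 in the fit of the 2 groups alone, 1052 with the block within each line and 243 with the shared block. With 1 library left out that count was 23, 163, 20 and 190 without post-hypoxic SCC154 replicates 2, 3, 4 and 5, and 57, 20, 21, 51 and 23 without non-hypoxic SCC154 replicates 1 to 5; it was 55 without post-hypoxic and 59 without non-hypoxic FaDu replicate 3, and 63 to 105 without any other FaDu library. In FaDu, 0 were called, against 10 without the filter, 3 by DESeq2 and 7 with the block within each line; the interaction called 2, against 51, 21 and 224, and 5 with the shared block. No blocked fit called a keratin in FaDu or the interaction; a block within each line cannot be estimated between lines, and the interaction has no fit of 2 groups.

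Signs turned only in values that had not passed the test. For KRT6A in SCC154, the log2 fold change of -0.01 was 0.0087 with upper-quartile factors and 0.0366 with the shared block, and -0.0496 to 0.0704 with 1 library left out; KRT86 there ran from -0.3959 to 0.0075. KRT7 in FaDu was 0.3219 by limma voom, and KRT14 in the interaction was -0.0816 with the block within each line. With 1 library left out, FaDu values ran from -0.0083 to 0.2487 for KRT10, -0.206 to 0.114 for KRT15, -0.0473 to 0.0768 for KRT18, -0.0228 to 0.0884 for KRT19, -0.1089 to 0.4073 for KRT6A and -0.4404 to 0.4406 for KRT7. Interaction estimates ran from -0.0753 to 0.421 for KRT13, -0.1147 to 0.2373 for KRT14, -0.0814 to 0.0516 for KRT5, -0.4152 to 0.0949 for KRT6A, -0.7442 to 0.1373 for KRT7 and -0.1772 to 0.0968 for KRT8. Depth limits KRT81, KRT86, KRT75, KRT32 and KRT222 where a group holds few counts.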

Other observations

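Keratins under a mean of 1 CPM in every group were too scarce for the comparisons. KRT34, a type I hair keratin, had 7 counts in post-hypoxic SCC154 and 1 in post-hypoxic FaDu, and 9 in non-hypoxic SCC154 and 0 in non-hypoxic FaDu. Fitted without the filter on low counts, it was called higher in SCC154 in the post-hypoxic (adjusted p = 0.0469 by edgeR) and non-hypoxic (adjusted p = 0.00909) fractions. The other 10 such keratins had 1 to 6 counts over all libraries: KRT78 had 6, KRT33B 5, KRT6B 4, KRT3 and KRT83 3 each, KRT6C, KRT23 and KRT74 2 each, and KRT27 and KRT31 1 each. KRT6B and KRT6C, close copies of KRT6A, thus held 6 counts in all.

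Keratin pseudogenes, which the member rule leaves out, held 638 counts over 51 of 150 symbols, beside 98778 counts of the keratins themselves.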
